A study of Mus musculus with 6 samples.

Results

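Notch1, 3 ligands of Notch receptors (Dll1, Dll3 and Jag1) and 6 genes that respond to Notch signalling (Hes1, Hes5, Hey1, Hey2, Heyl and Nrarp) were followed in cultured mouse NSP cells after REST was targeted. The labels do not spell out NSP, an abbreviation widely used for neural stem or progenitor cells. The members were all probe sets annotated to exactly 1 of these genes, where a probe set is a handful of oligonucleotides against a single transcript. This gave 17 probe sets for 10 of 18193 named genes, among 45037 probe sets tested. The cells came from E12.5 mouse brains, that is from embryos of mid gestation, and were grown to confluence on coated dishes and split. A lentivirus then carried a short hairpin RNA (shRNA) into them during 1 night of infection. The hairpin was a control in 3 samples and was directed against REST in the other 3, and RNA was taken from both groups after 6 days of regrowth. Both groups were therefore infected cells, and the labels give no mouse strain, do not describe the target of the control hairpin and leave unstated if replicates were grown as separate cultures. Each RNA was read on 1 Affymetrix array, with values in log2 units of signal, and each p-value therefore reflects the spread among these samples alone, which may be technical.

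Notch receptors sit in the membrane of the receiving cell and are activated by Delta and Jagged ligands on neighbouring cells. Cleavage then frees the intracellular domain of the receptor, which enters the nucleus, joins the DNA-binding protein RBPJ and switches on genes of the Hes and Hey families. In the embryonic brain these factors repress proneural genes and keep progenitors undifferentiated, while the cells that begin to become neurons carry most of the Delta ligand. REST, the targeted protein, is a zinc finger repressor that keeps many neuronal genes low outside neurons.

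Rest itself checks the labels. Its brightest probe set read 8.92, 8.75 and 8.90 in control arrays 1, 2 and 3, and 8.63, 7.70 and 8.20 in REST shRNA arrays 1, 2 and 3. The groups did not overlap for any of the 4 Rest probe sets, which read 57.3% to 71.5% of control. By exact permutation (two-sided) each p was 0.1, the smallest possible with 3 arrays against 3, and none passed the limma threshold adjusted over all probe sets. Of the progenitor markers fitting the label, 10 of 10 lay above a background reference of 3.24. It is the highest signal of 27 bacterial control probe sets, those for dap, lys, phe, thr and trpn. Markers of other cells passed that reference as well: all 8 astrocyte markers, 6 of 7 oligodendrocyte lineage markers and all 10 neuron markers. The counts were 5 of 7 for mural, 1 of 7 for endothelial, 3 of 6 for fibroblast and 3 of 6 for microglial markers. Of all 18193 named genes, 13831 lay above the reference too, so passing it says little about which cells were present. REST shRNA array 2 stood apart, with an average astrocyte marker level of 8.25 against 9.89 to 10.3 in the other 5 arrays. The levels of Acta2, an actin of smooth muscle and mural cells, split the arrays across the groups, at 8.49, 8.40 and 8.0 in control arrays 1 and 2 and REST shRNA array 2, and between 3.55 and 4.07 in the others. In RNA from mixed cells, fewer cells of a type and less RNA per cell cannot be told apart.

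Most of the Notch genes read somewhat lower with REST shRNA, and none passed the test. With 1 probe set per gene, the one with the highest mean, 9 of 10 genes had a negative log2 difference (REST shRNA minus control), where 42.8% of all named genes did. With each array centred on its median, or after quantile normalization, Heyl turned to 0.0075 and 0.0057 and the other 9 kept their signs. The median difference was -0.27, beside 0.04 over all named genes. Over all probe sets 12 of 17 were negative, where the background was 47.4%. In the limma fit 0 of 17 passed an adjusted p of 0.05, as did 0.00% of all 45037 probe sets, and the smallest adjusted p of a member was 1.00. At an unadjusted p under 0.05 in limma the count was also 0 of 17, where 1.93% of all probe sets were lower and 1.54% higher. Those shares are 868 lower and 692 higher probe sets, and centring each array on its median turned the split to 675 lower and 899 higher. With control array 3 left out, 4 members were lower at an unadjusted p under 0.05, beside 676 lower and 628 higher over all probe sets. With the second REST shRNA array left out, 2 members were lower and 1 higher, beside 1346 and 1434. Dropping the first gave 2 higher members, beside 1346 higher and 1367 lower over all, and dropping the last gave 2 lower, beside 704 lower and 652 higher. In each case 0 passed the adjusted threshold. The 2 groups did not overlap for 1 member probe set that was lower (background 3.90%), the dimmer one of Notch1, and for 1 that was higher (background 4.35%), a probe set of Heyl below the background reference. By gene, 0 of 10 stood clear of overlap in either direction, where 2.65% of named genes were clear and lower and 4.91% clear and higher.

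**Figure D1:**
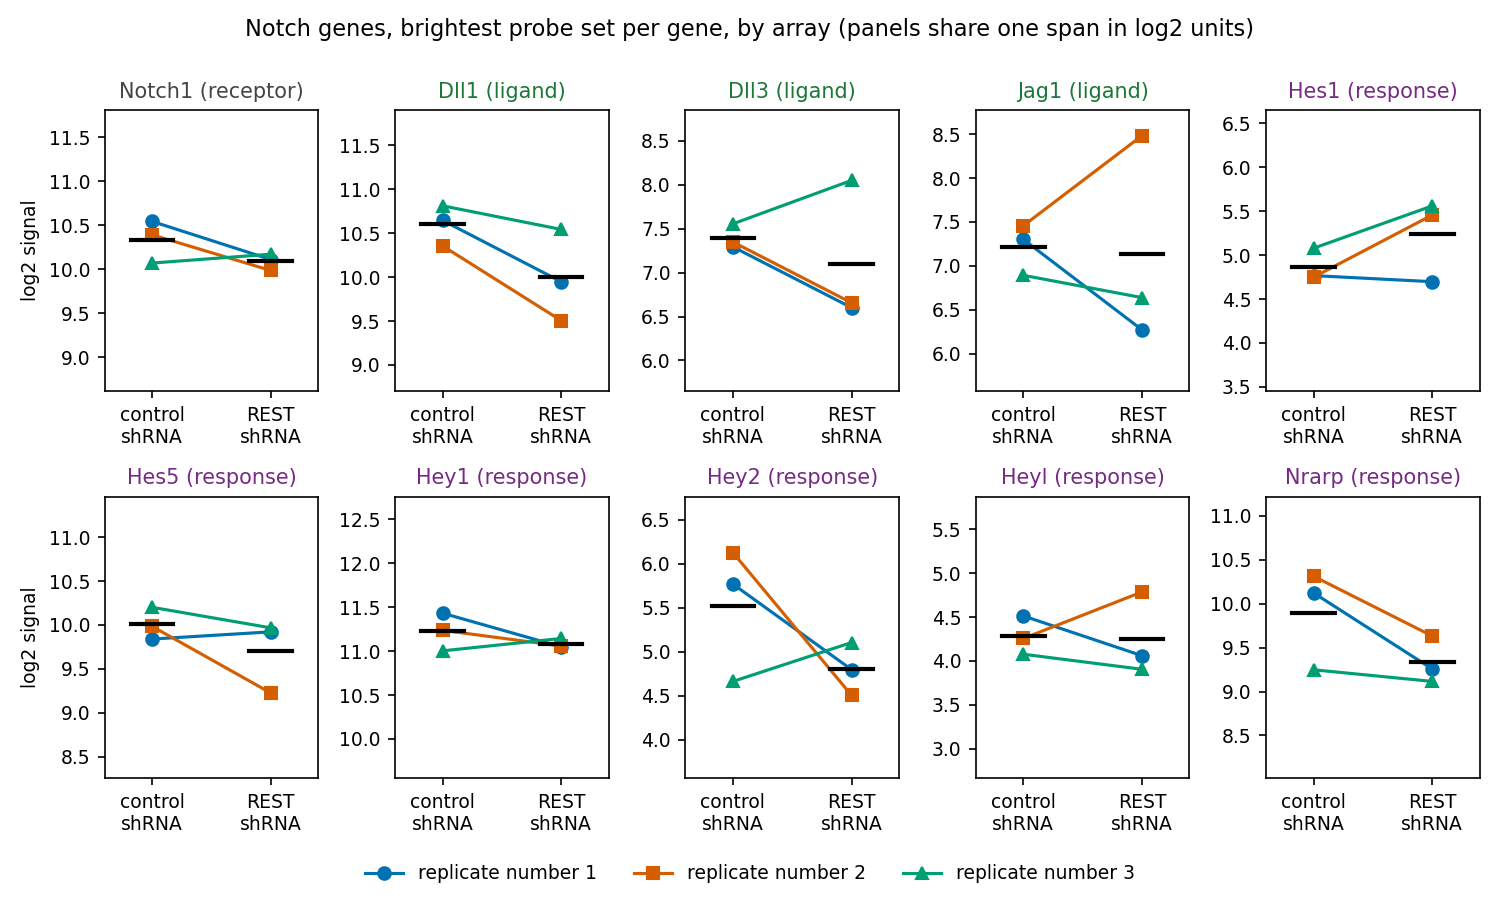
Log2 signal of the brightest probe set of each Notch gene (y axis) in control and REST shRNA arrays (x axis). Points are arrays, lines join arrays with the same replicate number, black bars are group means of 3 arrays, and each panel spans the same number of log2 units. Dll1 and Nrarp slope down for every replicate number, while Jag1 and Heyl slope up for number 2 alone and Dll3 and Hey2 for number 3 alone.

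Notch1, the receptor, is the main Notch receptor of neural progenitors. Its brightest probe set read 10.5, 10.4 and 10.1 in the control arrays and 10.1, 9.99 and 10.2 in the REST shRNA arrays. Control array 3 lay among the REST shRNA arrays, so the groups overlapped. The difference was -0.25 ± 0.18 (SE, log2, n = 3 per group), 84.3% of control, with a 95% confidence interval from -0.67 to 0.17. The dimmer probe set of Notch1 read 8.68, 8.54 and 8.35 in control and 8.19, 7.94 and 8.24 with REST shRNA. All 3 REST shRNA arrays lay below all controls, at -0.40 ± 0.17 (SE, log2), with an interval from -0.80 to 0.00095.

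Of the 3 ligands, Dll1 showed the steadiest difference. Dll1, the Delta ligand that differentiating cells present to their neighbours, read 10.6, 10.4 and 10.8 in the control arrays and 9.95, 9.51 and 10.5 in the REST shRNA arrays. It was lower for every replicate number, by -0.70, -0.85 and -0.27 for numbers 1, 2 and 3, but REST shRNA array 3 stood above control array 2 and the groups overlapped. The difference was -0.61 ± 0.28 (SE, log2), 65.7% of control, with a 95% interval from -1.28 to 0.07. Among the member probe sets 3 were lower for all 3 replicate numbers, namely Dll1, the dimmer one of Notch1 and the brighter one of Nrarp, where 11.0% of all probe sets were. With REST shRNA array 2 left out, the array that stood apart, Dll1 differed by -0.36, and leaving out REST shRNA array 3 gave -0.88.

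Dll3 is a divergent Delta protein that acts inside the cell that makes it, and Jag1 belongs to the Jagged ligands. Dll3 read 7.29, 7.35 and 7.55 in control, a narrow range, and 6.60, 6.66 and 8.05 with REST shRNA. REST shRNA arrays 1 and 2 lay below all controls and array 3 above all of them. Its difference was -0.30 ± 0.39 (SE, log2), with an interval from -1.22 to 0.63, and -0.77 without REST shRNA array 3. Jag1 read 7.30, 7.46 and 6.89 in control and 6.27, 8.48 and 6.64 with REST shRNA in its brightest probe set. The high value came from REST shRNA array 2, which was also the highest for both other Jag1 probe sets, at 8.56 and 6.25. The 3 probe sets differed by -0.09 ± 0.55, 0.27 ± 0.63 and 0.47 ± 0.43 (SE, log2) from the brightest to the dimmest, so their signs disagreed. Without REST shRNA array 2 the brightest stood at -0.76 and the next at -0.52. Of the 10 progenitor markers, Nes, which encodes nestin, was also highest in that array, at 9.99 against 6.81 to 8.57 in the others. The other 9 were lower in it than in control array 2, and the median over all 10 was -0.54 for number 2. The part of cell makeup in the Jag1 values was not tested.

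Promoter sequence was looked up for the members to show which letters lie near the starts of these genes. RefSeq windows (GRCm38.p6) of 300 bases, 250 before to 50 after a transcript start, were found for 7 of the 10 genes, with 2 for Dll1. The letters TGGGAA, a core that RBPJ recognises, and the longer GTGGGAA were searched on both strands, and so were CAGCTG, an E-box of the kind that proneural factors bind, and CAGCACC, the core of the left part of the REST element. TGGGAA stood in 2 of the 8 windows, those of Hes5 and Hey2, and in 25.6% of all 32851 windows. The longer GTGGGAA, which contains it, stood in the same 2 windows and in 6.38% of all. CAGCTG stood in 4 windows, those of Dll1 (1 of its 2), Dll3, Jag1 and Nrarp, and in 16.3% of all. CAGCACC stood in 2, those of Dll1 and Nrarp, and in 7.14% of all, while the longer TTCAGCACC stood in 0 of the 8 and in 0.371% of all. A match is a description of the letters and not a bound site.

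The first 260 bases of 4 windows are shown 5′ to 3′ on the gene's strand, ending 10 bases into the transcript. They are Dll1, Hey2 and Nrarp, the members with the lowest differences, and Hes5, a response gene of progenitors. Capitals mark GTGGGAA in Hes5 and Hey2, CAGCTG and CAGCACC in Dll1 and CAGCACC in Nrarp, or their reverse complements. The CAGCTG of Nrarp begins at 33 bases after the start, past the stretch shown. The windows are chr17:15376923-15377182 on the minus strand for Dll1, chr4:154960673-154960932 on the plus strand for Hes5, chr10:30842774-30843033 on the minus strand for Hey2 and chr2:25180508-25180767 on the plus strand for Nrarp.
Dll1: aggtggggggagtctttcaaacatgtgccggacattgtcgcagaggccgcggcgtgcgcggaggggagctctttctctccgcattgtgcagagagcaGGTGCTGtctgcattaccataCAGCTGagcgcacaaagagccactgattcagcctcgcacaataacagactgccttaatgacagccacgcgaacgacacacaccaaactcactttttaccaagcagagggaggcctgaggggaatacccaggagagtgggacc
Hes5: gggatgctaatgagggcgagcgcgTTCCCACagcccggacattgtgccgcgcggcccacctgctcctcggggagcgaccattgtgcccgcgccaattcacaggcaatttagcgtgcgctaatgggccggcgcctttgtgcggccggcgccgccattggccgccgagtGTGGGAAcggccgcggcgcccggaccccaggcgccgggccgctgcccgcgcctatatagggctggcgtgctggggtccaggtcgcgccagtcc
Hey2: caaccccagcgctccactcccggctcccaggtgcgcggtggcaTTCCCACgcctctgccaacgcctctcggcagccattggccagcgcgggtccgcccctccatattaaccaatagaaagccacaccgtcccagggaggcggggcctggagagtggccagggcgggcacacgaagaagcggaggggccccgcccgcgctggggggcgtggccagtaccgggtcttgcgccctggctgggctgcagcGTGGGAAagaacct
Nrarp: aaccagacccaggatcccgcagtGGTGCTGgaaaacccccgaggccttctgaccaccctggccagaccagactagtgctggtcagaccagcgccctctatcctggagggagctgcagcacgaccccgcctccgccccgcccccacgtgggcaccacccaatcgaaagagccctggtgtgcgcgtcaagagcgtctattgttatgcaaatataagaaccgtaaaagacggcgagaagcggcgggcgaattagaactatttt
Hes5 and Hey2 each held GTGGGAA once on the gene's strand and once reversed. Relative to the start the copy on the gene's strand began at -83 and the reversed one at -226 in Hes5, and at -4 and -207 in Hey2. No window of Dll1 or Nrarp held these letters on either strand.

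The response genes did not share one pattern. Hes1 and Hes5 encode the repressors through which Notch signalling holds back neuronal differentiation. Hes5 read 9.84, 9.98 and 10.2 in the control arrays and 9.92, 9.23 and 9.97 in the REST shRNA arrays. The low value was that of REST shRNA array 2, and the other REST shRNA arrays lay within the controls. The difference was -0.30 ± 0.24 (SE, log2), with an interval from -0.87 to 0.27, and -0.06 without REST shRNA array 2. This probe set can match further transcripts, and the other one of Hes5 differed by -0.21 ± 0.27. Sox2 and Pax6, regulators of progenitors, were also lowest in REST shRNA array 2. They read 9.97 and 8.55 there, against 10.65 or more and 9.07 or more in the other arrays. Not every progenitor marker did so: Nes was highest in that array, and Fabp7 and Ptprz1 were lowest in REST shRNA array 3. The part of cell makeup in Hes5 was not tested.

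Hes1 was the single gene of the 10 with a positive difference in the brightest probe set. It read 4.77, 4.75 and 5.08 in control and 4.70, 5.46 and 5.56 with REST shRNA, so REST shRNA arrays 2 and 3 lay above all controls and array 1 below all of them. The difference was 0.37 ± 0.26 (SE, log2), with an interval from -0.24 to 0.99. It was 0.64 with the first REST shRNA array left out and 0.21 with the third left out. The Hes1 and Hes5 differences were therefore of opposite sign, and neither passed the test.

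Hey1, Hey2 and Heyl encode a related family of repressors with the same mode of activation. Hey1 was the most even of the members, at 11.4, 11.2 and 11.0 in control and 11.0, 11.1 and 11.1 with REST shRNA. Its difference was -0.14 ± 0.17 (SE, log2), and the interval from -0.53 to 0.25 leaves out a halving and a doubling of the signal. Hey2 read 5.77, 6.13 and 4.66 in control and 4.80, 4.50 and 5.11 with REST shRNA. Control arrays 1 and 2 were high, while control array 3 lay within the REST shRNA arrays. Hey2 had the lowest difference of the 10 genes, -0.72 ± 0.39 (SE, log2), 60.8% of control, with an interval from -1.63 to 0.20. It stood at -1.15 without control array 3 and at -0.41 without control array 2. Heyl was dim, at 4.51, 4.26 and 4.08 in control and 4.06, 4.79 and 3.91 with REST shRNA in its brightest probe set, and differed by -0.03 ± 0.27. Of its other probe sets, both below the background reference, one read 2.95, 3.04 and 2.73 in control and 3.20, 3.12 and 4.13 with REST shRNA, at 0.57 ± 0.29.

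Nrarp, which encodes a small protein that is induced by Notch and limits the activity of the receptor, was lower for every replicate number. Its brightest probe set read 10.1, 10.3 and 9.25 in control and 9.26, 9.63 and 9.12 with REST shRNA. Control array 3 was the exception among the controls and lay within the REST shRNA arrays. The difference was -0.56 ± 0.31 (SE, log2), 67.9% of control, with an interval from -1.29 to 0.17. The differences for numbers 1, 2 and 3 were -0.87, -0.68 and -0.13, and the dimmer probe set gave -0.91, -0.37 and 0.32. Without control array 3 the brightest stood at -0.88, and without control array 2 at -0.35.

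**Figure D2:**
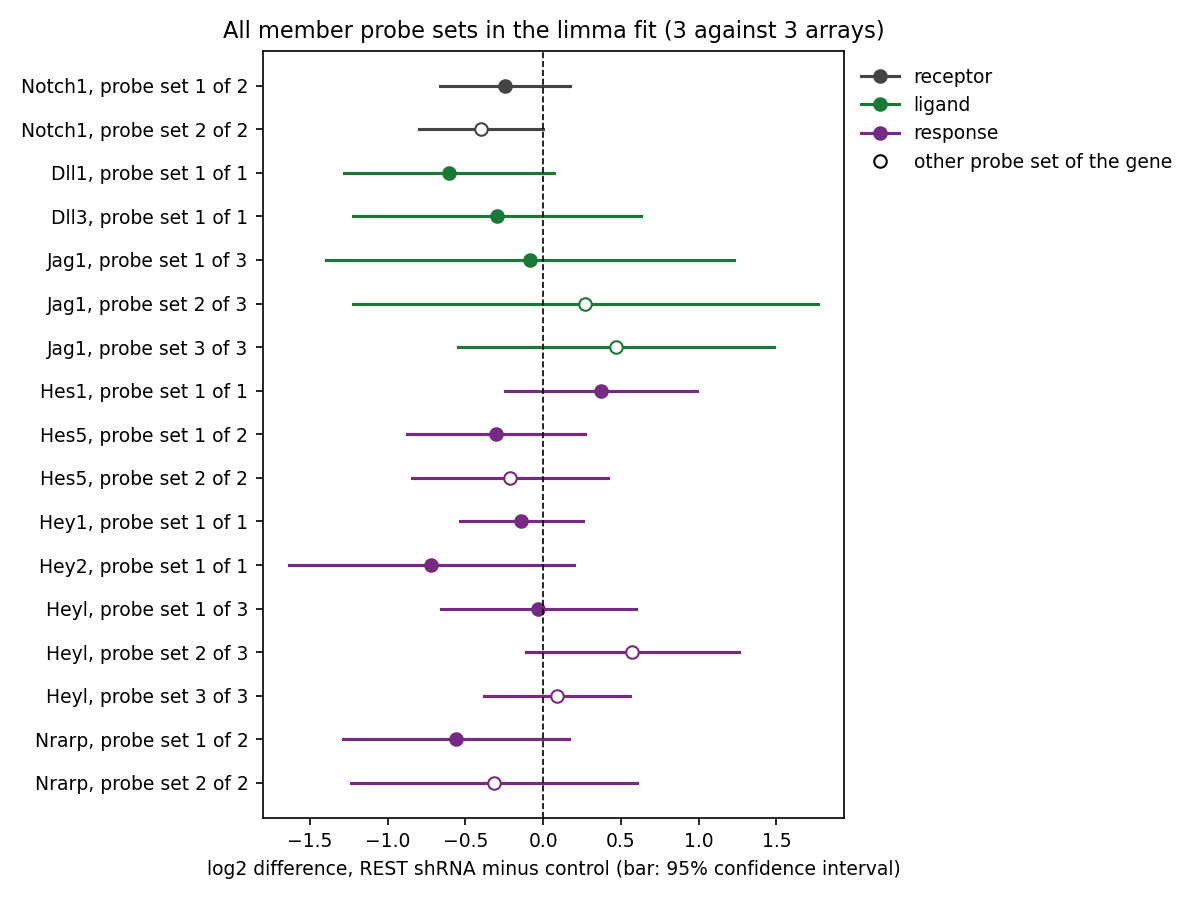
Log2 difference (x axis) of each of the 17 member probe sets (y axis, brightest first within a gene) in the limma fit of 3 REST shRNA against 3 control arrays. Points are estimates, open for further probe sets of a gene. Bars are 95% confidence intervals that ignore the replicate numbers, and every bar crosses 0. With the numbers as a block in limma, Dll1 and the brighter probe set of Nrarp had an unadjusted p under 0.05. No member probe set passed the adjusted threshold.

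The ligands and the response genes differed little as groups. By the brightest probe set of each gene, the 3 ligands were all negative, with a median difference of -0.30. Of the 6 response genes 5 were negative, with a median of -0.22. Jag1 was negative in that probe set alone, at -0.09, beside 0.27 and 0.47 in its others. So was Heyl, at -0.03, beside 0.57 and 0.09 in its others. Within the ligands the range was -0.61 to -0.09 and within the response genes -0.72 to 0.37, so the range of the response genes held that of the ligands. The ligand median was -0.70, -0.69 and -0.25 for replicate numbers 1, 2 and 3, and the response median was -0.42, -0.43 and 0.0043. The ligand median was thus below the response median for each number, by -0.28, -0.26 and -0.26, where over all arrays the gap was -0.075. These gaps rest on 3 ligands and are given as a description, with no test. The gap turned with the first REST shRNA array left out, to a ligand median of -0.046 above a response median of -0.27, and without both arrays numbered 1, to -0.099 above -0.21. With the third REST shRNA array left out the medians were -0.77 and -0.30.

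The replicate numbers gave unlike pictures, and control array 3 was the lowest control for Notch1, Jag1, Hey1, Hey2, Heyl and Nrarp. For number 1, 9 of the 10 genes were lower with REST shRNA, for number 2 it was 7 and for number 3 it was 5. Of all 18193 named genes 8699, 9321 and 6949 were lower, so fewer genes were lower for number 3 across the arrays as well. The median over the 10 genes was -0.57, -0.54 and -0.02 in that order, beside 0.01, -0.01 and 0.11 over all named genes. Dll1 and Nrarp were the genes lower for each number, 2 of 10, where 8.77% of all named genes were, and 0 of the 10 were higher for each number, where 13.6% were. With the replicate number as a block in the limma fit the count past the adjusted threshold stayed at 0 of 17. At an unadjusted p under 0.05 the block gave 2 of 17, Dll1 and the brighter probe set of Nrarp, both lower, where 2.42% of all probe sets were lower and 1.87% higher.

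**Figure D3:**
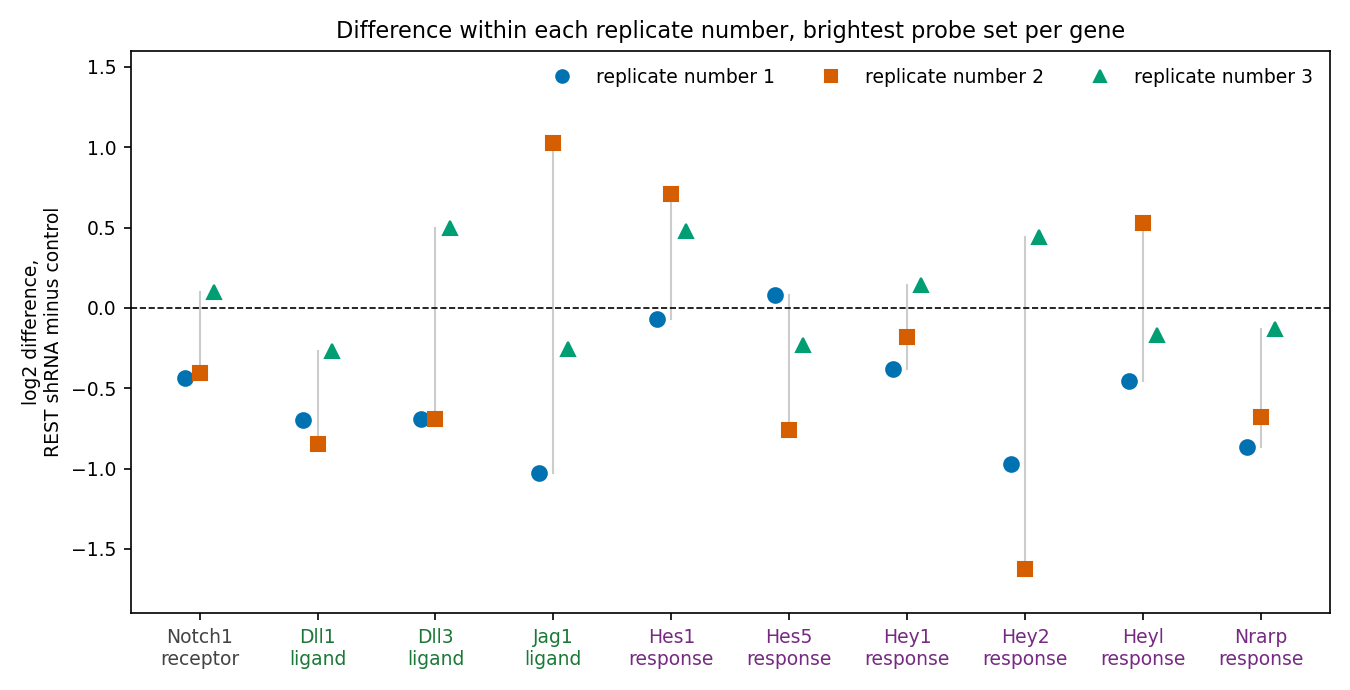
Log2 difference within each replicate number (y axis) for the brightest probe set of the 10 genes (x axis, coloured by role). Each symbol is 1 REST shRNA array minus the control array of the same number, and Dll1 and Nrarp have all 3 symbols below 0.

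Of the other genes of the pathway none passed the test. The list held 46 genes and 42 were matched, of which 25 were negative and 17 positive, where 42.8% of named genes were negative. The median was -0.07, beside 0.04 over all named genes. For replicate numbers 1, 2 and 3 the count of lower genes was 22, 32 and 19 of 42, with medians of -0.03, -0.26 and 0.07. Over all 18193 named genes the counts of lower genes were 8699, 9321 and 6949. In limma 0 passed the adjusted threshold and 0 had an unadjusted p under 0.05, where 1.04% of named genes were lower and 1.69% higher. Notch3, a receptor known from mural cells and from progenitors, read 8.36, 8.49 and 6.73 in control and 7.47, 6.96 and 7.18 with REST shRNA. It followed the order seen for Hey2 and Nrarp, with control arrays 1 and 2 high and control array 3 low, and differed by -0.66 ± 0.47 (SE, log2). Adam10, the protease that makes the outer cut of the activated receptor, differed by -0.27 ± 0.18 and its 3 other probe sets by -0.05 to -0.51. Hes7, a factor of the segmentation clock, differed by -0.24 ± 0.18. On the positive side was Dlk1, a non-canonical ligand, at 0.30 ± 0.19, with its other probe set at -0.02. Also positive were Hes2 at 0.20 ± 0.17 and Rfng, a fringe enzyme that modifies the receptor, at 0.22 ± 0.22. Dlk1 and Hes2 lay below the background reference. Members by role gave medians of -0.25 for the 3 further receptors, 0.03 for 5 ligands, -0.12 for 5 genes of the nuclear complex, -0.13 for 8 genes of receptor cleavage, -0.13 for 5 of glycosylation, -0.07 for 11 of endocytosis and turnover and -0.04 for 5 Hes and related factors.

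Proneural factors, the genes that Hes proteins repress, were mixed. Of 12 matched genes 5 were negative and 7 positive, where 42.8% of named genes were negative. The median of the 12 was 0.21, beside 0.04 over all named genes. At an unadjusted p under 0.05 in limma the count was 0 of 12, where 1.04% of named genes were lower and 1.69% higher. Neurog2, which starts neurogenesis and activates Delta genes, read 5.94, 6.84 and 6.78 in control and 6.04, 3.79 and 7.12 with REST shRNA. Its low value was REST shRNA array 2, where Dll1 and Hes5 were also lowest. Neurog1 differed by -0.12 ± 0.15 (SE, log2) and its other probe set by 0.20 ± 0.15, Nhlh1 by 0.50 ± 0.37 and Atoh1, below the background reference, by -0.26 ± 0.18.

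Markers of other cells varied over the same arrays. Neuron markers had a median difference of 0.80, with 7 of 10 positive and 4 higher at an unadjusted p under 0.05 in limma, where 1.69% of named genes were higher, and their average level was 7.71 to 8.18 in control and 8.38 to 9.06 with REST shRNA. Astrocyte markers had a median of -0.44, with levels of 9.89 to 10.3 in control and 8.25 to 10.2 with REST shRNA, and progenitor markers had a median of -0.24, with 10.6 to 10.7 and 10.2 to 10.6. Each of these lists had 1 gene lower at that threshold, where 1.04% of named genes were lower. For replicate numbers 1, 2 and 3 the astrocyte medians were -0.08, -1.33 and 0.04 and the progenitor medians -0.005, -0.54 and -0.09. The neuron medians were 0.83, 0.37 and 1.10 in that order. The low astrocyte level, 8.25, was that of REST shRNA array 2, and REST shRNA arrays 1 and 3 both read 10.2. Oligodendrocyte lineage, fibroblast and microglial markers had medians of 0.04, 0.23 and 0.05. Endothelial markers, of a lineage that also uses Jag1, Hey1 and Hey2, had average levels of 2.55 to 2.68 in control and 2.60 to 2.88 with REST shRNA, under the background reference, with Pecam1, Cdh5 and Tek all below it on average. Mural markers had levels of 3.80 to 4.53 in control and 3.68 to 4.39 with REST shRNA, with Pdgfrb at 5.39 to 6.70 over the arrays, Rgs5 at 3.25 to 3.80 and Acta2 as given above. Acta2 was high in control arrays 1 and 2, as were Hey2, Nrarp and Notch3, and low in control array 3. In REST shRNA array 2, where Acta2 was also high, Nrarp was the highest of the REST shRNA arrays and Hey2 and Notch3 were the lowest. The part of these cells in the Notch values was not tested.

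**Figure D4:**
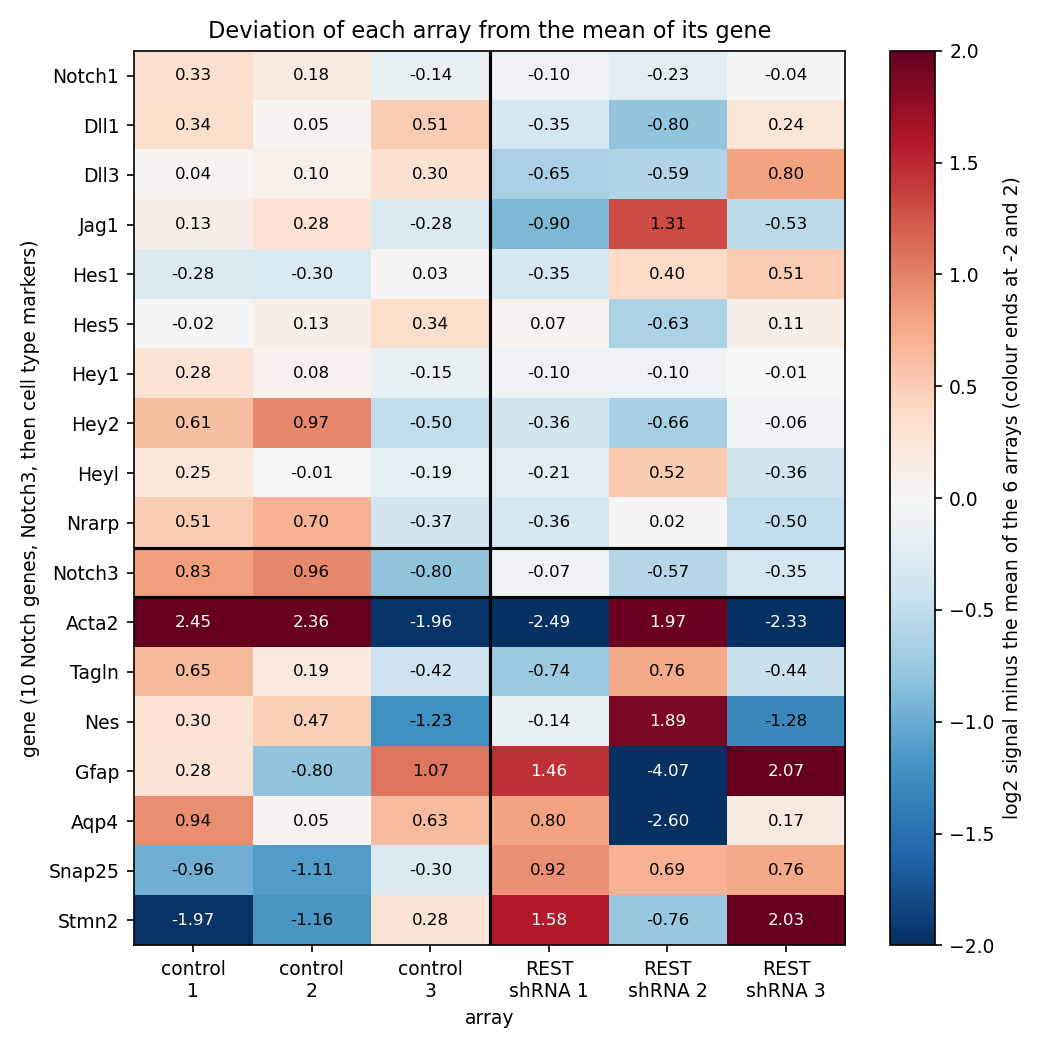
Log2 signal of each array (x axis) minus the mean of the 6 arrays for the 10 Notch genes, Notch3 and 7 cell type markers (y axis), with the colour scale in log2 units. Hey2, Nrarp, Notch3 and Acta2 are positive in control arrays 1 and 2 and negative in control array 3. So are Notch1, Jag1, Hey1, Tagln and Nes. REST shRNA array 2 holds the lowest Gfap and Aqp4.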

How the data were processed

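RNA of 6 samples was measured on 1-colour Affymetrix arrays. Trizol was used to extract the RNA and biotin to label the target, per the labels' protocols. The deposited values are in log2 units per probe set, as read from their range of 1.00 to 14.2. The background correction, summary and normalization are steps not given in the sources used here. Sorted values differed by 0.112 or less from the mean of the arrays, a nearly common distribution in which a change of total RNA per cell would not show. Array number limits the precision. Every column of the table matched 1 sample.

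Gene names came from the platform's annotation table: 34958 of 45101 had 1 gene, 932 had several and 9211 were unnamed. Of the first, 34754 found their gene number in RefSeq (GRCm38.p6). The 64 control probe sets were left out. A linear model (limma 3.58.1, R 4.3.3) was fitted to the log2 values, with the group as the sole term, two-sided, adjusted by Benjamini-Hochberg over all 45037 probe sets, and was tested on simulated data. No filter was applied. Counts of genes take the probe set of highest mean signal. The background reference is the highest signal of 27 bacterial control probe sets.

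Groups and replicate numbers come from the titles. Same-numbered arrays deviated together from their groups (r = 0.117, 0.282 and 0.402 for numbers 1, 2 and 3). All exceed 0.1, the rule for treating numbers as pairs, although REST shRNA array 2 gave 0.231 with control array 1. The main fit nevertheless held no block, which was run as an alternative, so every SE and interval printed here ignores the pairs. With the block the SE was smaller for some members (Dll1, 0.20 in place of 0.28). It was larger for others (Hey1, 0.19 in place of 0.17). Named were Rest, all 10 Notch genes, the 3 other pathway genes per direction with the smallest p, Neurog1, Neurog2, the 2 further proneural genes with the smallest p, and marker genes. Any further gene was picked with its values in view. The members and lists were chosen with earlier results of these data known. 5 listed pathway and proneural genes and 1 marker were not matched and were not analysed here. Alternatives were the block, other scalings, filters, variance models, array weights, other probe set choices and leaving out arrays. Leaving out both arrays of a number was chosen after seeing the data.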

Additional observations from a re-analysis of the deposited data

How the results depend on the processing

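No member probe set passed the adjusted threshold in limma under any of the 18 alternatives, the replicate block included (0 of 17), and the smallest adjusted p under any of them was 0.801, for Jag1 without REST shRNA array 2. At an unadjusted p under 0.05 the members counted 2 lower with the replicate block and 4 lower with array weights. They counted 1 lower with quantile normalization (beside 817 lower and 753 higher of all probe sets). Without both arrays numbered 3 the members counted 5 lower (beside 653 lower and 589 higher of all probe sets). Without single arrays they were 4 lower (control array 3), 2 higher (REST shRNA array 1), 2 lower and 1 higher (array 2) or 2 lower (array 3), and 0 in the other alternatives. Over all probe sets the unadjusted counts of 692 higher and 868 lower became 324 and 513 when control array 1 was dropped, 450 and 798 when control array 2 was, 1346 and 1367 when REST shRNA array 1 was, 1434 and 1346 when REST shRNA array 2 was, 1318 and 1243 with array weights, 323 and 195 with 1 probe set per gene, 452 and 594 among probe sets above the background reference, and 288 and 357 among those above the median signal. The counts without control array 3 and REST shRNA array 3 were 628 and 676, and 652 and 704. The sign held under every alternative run for 12 of the 17 probe sets. The median of the 10 genes ranged from -0.36 to -0.19 when single arrays were left out (-0.13 without both arrays numbered 1), that of the response genes from -0.30 to -0.21, and that of the ligands from -0.77 to -0.046, or -0.69 without both arrays numbered 3.

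Signs turned for 5 probe sets. The brightest of Jag1 ranged from -0.76 to 0.34 without single arrays and stood at 0.39 without both arrays numbered 1. The next of Jag1 ranged from -0.52 to 0.71, with -0.10 under array weights and -0.37 without both arrays numbered 2. The dimmer Hes5 ranged from -0.41 to 0.026, with 0.097 without both arrays numbered 2. The brightest of Heyl ranged from -0.30 to 0.14, with 0.0075 on centred arrays, 0.0057 with quantile normalization, 0.18 without both arrays numbered 1 and 0.039 without both arrays numbered 3. The dimmest of Heyl ranged from -0.069 to 0.24, with -0.10 without both arrays numbered 1. The cause was not tested. Signals near the background reference may understate differences, which was not tested either.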

Other observations

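Some pathway genes outside the named set were chosen with their values in view. Mfng, a fringe enzyme that modifies Notch receptors, read 8.30, 8.41 and 8.26 in control and 7.46, 7.52 and 8.74 with REST shRNA, low in REST shRNA arrays 1 and 2 and high in array 3, as Dll3 was. Dtx4 encodes a Deltex ubiquitin ligase of the pathway. Its brightest probe set read 9.99, 9.91 and 8.87 in control and 9.61, 9.74 and 9.19 with REST shRNA. Control array 3 was the lowest of the controls, as for Hey2 and Nrarp. It was also the lowest of all 6 arrays, unlike in Hey2 and the brightest probe set of Nrarp. The dimmer probe sets reversed this contrast. In Nrarp control array 3 was the lowest of all 6, at 7.49. In Dtx4 REST shRNA array 3 was the lowest, at 8.14 against 8.32 in control array 3. Bhlhe40, a repressor related to the Hes factors, was lower for each replicate number by nearly the same amount, -0.38, -0.33 and -0.37, while its level differed more between the numbers, with 9.38, 9.87 and 10.2 in control arrays 1, 2 and 3.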
